A study of Mus musculus with 2 samples.

Results

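The 51 genes described here are the protein-coding mouse genes of the G protein α, β and γ subunits and of the regulators of G protein signalling (RGS), chosen by gene symbol. They are 51 of the 69691 entries, and of the 43346 annotated genes, in each gene quantification. The set holds 15 Gα, 5 Gβ, 12 Gγ and 19 RGS genes. Gnas, which encodes the stimulatory α subunit, and the 2 RGS genes Rgs5 and Rgs9 lie outside it by that rule.

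Heterotrimeric G proteins relay signals from seven-pass receptors. A ligand-bound receptor makes the α subunit exchange GDP for GTP, the α subunit and the βγ dimer part, and both act on enzymes and ion channels until the α subunit hydrolyses its GTP. RGS proteins speed up that hydrolysis and so shorten the signal. In the cortex, receptors for glutamate, GABA, acetylcholine, monoamines, opioids and cannabinoids work through this cycle.

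The tissue is frontal cortex taken at 8 weeks of age from the C57BL/6J strain, with no treatment or genetic change named, and form 1 group of 2 biological replicates. Polyadenylated RNA longer than 200 nt, with spike-in RNAs added, was sequenced as stranded paired-end libraries. The quantifications hold 106084891 expected counts in replicate 1 and 90476207 in replicate 2. The labels give both replicates the same donor and describe them as pooled males and females. With 1 group, no test between conditions is possible.

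The sex-linked genes go against those labels: Xist had 0.25 TPM in replicate 1 and 110 in replicate 2, whereas Eif2s3y had 53.8 TPM in replicate 1 and 0.05 in replicate 2. The libraries thus do not hold RNA of the same animals, and the spread between them is not technical alone. Each ratio of replicate 1 over replicate 2 given here is therefore also a ratio of a library with Y-linked RNA over one with Xist, and sex and replicate cannot be told apart. TPM is a transcript abundance scaled to a fixed total per library, a level adjusted for transcript length. All 8 genes of a list for frontal cortex neurons were present at 1 TPM or more, with summed levels of 3424 TPM in replicate 1 and 3560 TPM in replicate 2. The list includes Snap25 and Syt1, found in neurons generally, and Gad1 and Gad2, of GABA neurons. Snap25 alone had 1313 TPM in replicate 1 and 1348 TPM in replicate 2, so the sum does not measure cortex alone. Striatal and olfactory bulb markers were also present, with sums of 221 and 250 TPM in replicate 1 and 266 and 260 TPM in replicate 2. The highest striatal means were those of Penk at 109 TPM and Ppp1r1b at 65.35 TPM, and the lowest that of Drd1 at 2.395 TPM. In the olfactory bulb list Doc2g and Th were highest, with means of 155 and 67.7 TPM. These sums do not measure how much of either tissue was present. Bulk tissue cannot tell fewer cells of a type from less RNA per cell.

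Of the 51 genes, 39 reached 1 TPM in both libraries, against 60.7% of the 21474 protein-coding genes. A mean of 10 TPM or more was reached by 35 of the 51, against 36.9% of protein-coding genes. Gng8, a Gγ gene, sat at the limit with 0.98 TPM in replicate 1 and 1.06 TPM in replicate 2. The remaining 11 were under a mean of 1 TPM, and 3 of them, Gnat3, Gngt1 and Rgs21, had no count in either library. A count of 0 allows up to 3 counts, which for these genes comes to 0.0335, 0.0194 and 0.0144 TPM in replicate 1 and to 0.0373, 0.0215 and 0.0159 TPM in replicate 2. These floors cover counting error only.

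**Figure D1:**
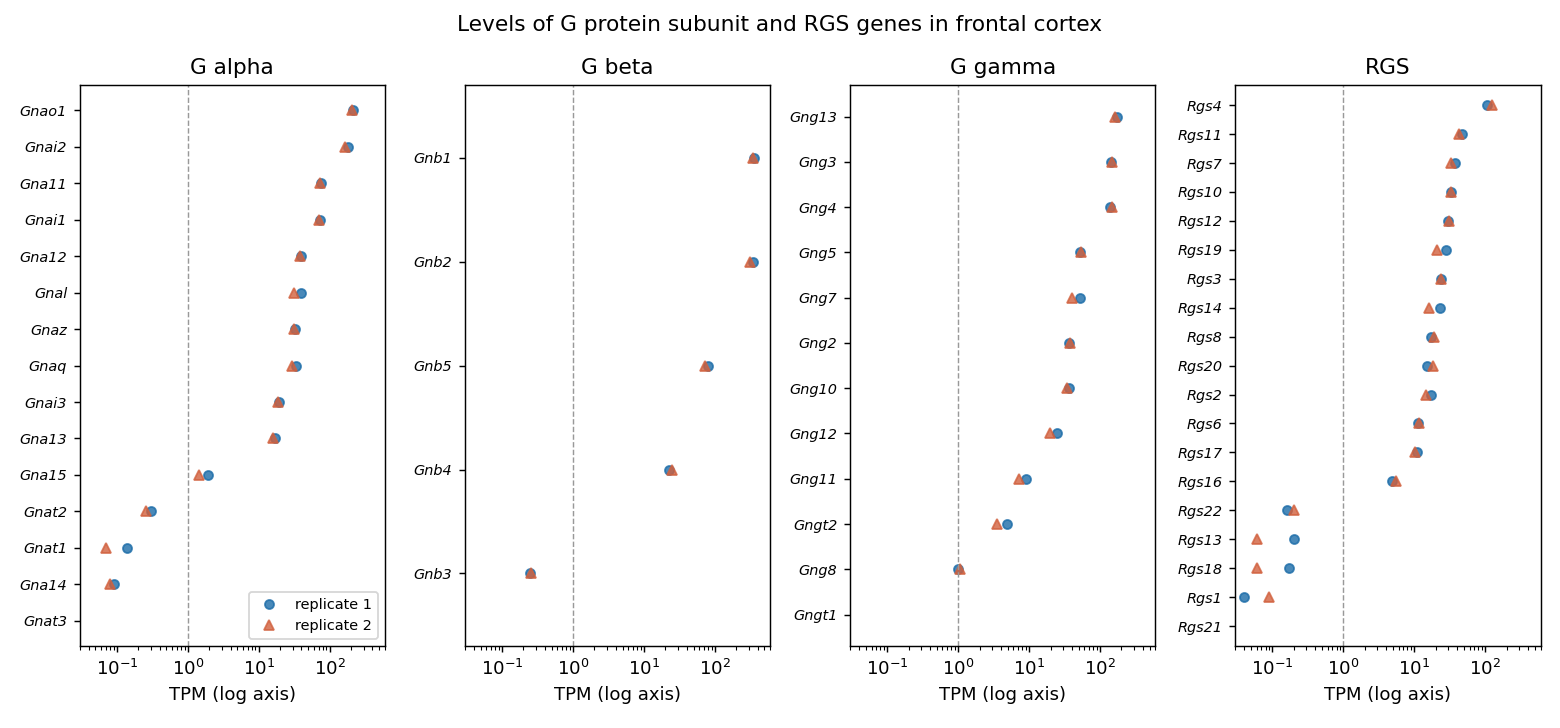
Levels of the 51 genes in TPM (log axis) by family, with a circle for replicate 1, a triangle for replicate 2 and a dashed line at 1 TPM. Gnat3, Gngt1 and Rgs21 were listed at 0 and have no point, Gng8 straddles the line, and the other 8 genes to its left have means under 1 TPM.

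The Gα genes summed to 732 TPM in replicate 1 and 683 TPM in replicate 2 (mean 708 ± 35.0, SD, n = 2). The inhibitory class, Gi and Go, took 71.85% ± 0.347 of that sum (SD, n = 2). The phospholipase C class took 15.3% ± 0.0993, the class of Gna12 and Gna13 7.82% ± 0.137, and Gnal, the set's only stimulatory α subunit, 5.03% ± 0.583, which was 9.31% by counts. Shares of summed TPM weigh transcripts, not proteins. Gnas alone, outside the set, reached 1177 TPM in replicate 1 and 1062 TPM in replicate 2, above the sum of all 15 Gα members in both libraries.

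Gnao1, which encodes Go and sits at chr8:93809966-93969388 on the plus strand (GRCm38), was the most abundant Gα gene with 216 TPM in replicate 1 and 207 TPM in replicate 2. Gnai2 followed with 182 TPM in replicate 1 and 165 TPM in replicate 2. The difference in favour of Gnao1 was 0.29 ± 0.05 on the log2 scale (mean and SD of the libraries' ratios, n = 2). A pair of genes was called apart beyond the spread where the sign was the same in both libraries, the mean log2 ratio exceeded its SD, and the deposited TPM intervals did not overlap in either library. Gnai1, which like the other Gi genes inhibits adenylyl cyclase, had 73.5 TPM in replicate 1 and 70.2 TPM in replicate 2. Gnai3 was the lowest of the 3 Gi genes, with 19.3 TPM in replicate 1 and 18.5 TPM in replicate 2, 9.19-fold below Gnai2. Gnaz, whose product resists pertussis toxin, had 32.7 TPM in replicate 1 and 31.1 TPM in replicate 2, or 0.76 ± 0.01 above Gnai3 on the log2 scale.

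In the phospholipase C class Gna11 led with 76.1 TPM in replicate 1 and 74.1 TPM in replicate 2. Gnaq had 33.5 TPM in replicate 1 and 29.3 TPM in replicate 2, lower than Gna11 by -1.26 ± 0.11 on the log2 scale (Gnaq over Gna11). The other members of the class were low. Gna15, known for its expression in blood cells, averaged 1.68 ± 0.318 TPM, and Gna14 had 0.09 TPM in replicate 1 and 0.08 TPM in replicate 2. In the remaining class, Gna13 had 17.1 and 15.7 TPM in replicates 1 and 2, and Gna12 had 39.5 and 38.4 TPM, a difference of -1.25 ± 0.06 on the log2 scale (Gna13 over Gna12). Gnal, a stimulatory subunit of striatum and olfactory epithelium, had 39.8 TPM in replicate 1 and 31.5 TPM in replicate 2.

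The transducins and gustducin were all under 1 TPM. Gnat1, the rod transducin, had 0.14 TPM in replicate 1 and 0.07 TPM in replicate 2, and Gnat2, the cone transducin, had 0.30 TPM in replicate 1 and 0.26 TPM in replicate 2. Gnat3, the taste gustducin, was at 0. Sorted by mean level, 7 of the 10 neighbouring pairs of Gα genes at 1 TPM or more were apart beyond the spread. Those that were not are Gna12 and Gnal, Gnal and Gnaz, and Gnaz and Gnaq.

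The Gβ genes summed to 804 TPM in replicate 1 and 758 TPM in replicate 2 (mean 781 ± 32.6, SD, n = 2), and Gnb1 and Gnb2 made up most of it. Gnb1 had 359 TPM in replicate 1 and 348 TPM in replicate 2, and Gnb2 had 342 TPM in replicate 1 and 313 TPM in replicate 2. The gap of 0.11 ± 0.06 on the log2 scale (Gnb1 over Gnb2) changed sign, to -0.05 ± 0.06, when only protein-coding transcripts were summed. By counts, with no division by length, Gnb1 took 60.6% of the family, against 45.3% by TPM.

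The remaining Gβ genes were lower. Gnb5, the divergent β subunit that pairs with RGS proteins of the R7 class, had 79.7 TPM in replicate 1 and 71.8 TPM in replicate 2. Gnb4 had 22.7 TPM in replicate 1 and 24.9 TPM in replicate 2. Gnb3, the β subunit of cones, had 0.25 TPM in replicate 1 and 0.26 TPM in replicate 2, so that it too was under 1 TPM. All 3 neighbouring pairs of Gβ genes at 1 TPM or more were apart beyond the spread.

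The Gγ genes, whose products anchor the dimer to membranes, summed to 670 TPM in replicate 1 and 651 TPM in replicate 2 (mean 660 ± 13.0, SD, n = 2). Gng13, a γ subunit known from taste, olfactory and retinal cells, had the highest level with 174 TPM in replicate 1 and 162 TPM in replicate 2. That value rests on few counts over a short template: 2648 counts in replicate 1 and 2118 in replicate 2, with effective lengths of 184 and 174 nt. By counts it took 2.94% of the family, against 25.4% by TPM. Without it the Gγ sum was 492 TPM, and by counts Gng4 led the family with 40.5% of it.

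Gng3 and Gng4, both brain γ subunits, followed. Gng3 had 143 TPM in replicate 1 and 147 TPM in replicate 2, and Gng4 had 137 TPM in replicate 1 and 146 TPM in replicate 2. They were not apart beyond the spread. Gng5, with 51.9 TPM in replicate 1 and 54.1 TPM in replicate 2, and Gng7, a γ subunit that pairs with Gnal in striatum, with 52.2 TPM in replicate 1 and 39.8 TPM in replicate 2, swapped order between libraries. Gng2 had 36.7 and 37.1 TPM in replicates 1 and 2, Gng10 had 36.02 and 34.12 TPM, and Gng12 had 24.4 and 19.5 TPM. Gng11 averaged 8.11 ± 1.44 TPM and Gngt2, the γ subunit of cones, 4.23 ± 0.926 TPM, while Gngt1, the γ subunit of rods, was at 0. Of the 10 neighbouring pairs of Gγ genes, 6 were apart beyond the spread.

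The RGS genes summed to 406 TPM in replicate 1 and 405 TPM in replicate 2 (mean 405 ± 0.898, SD, n = 2). The R4 class, small proteins made up of little more than the RGS domain, took 44.2% ± 2.94 of the sum (SD, n = 2). The R7 class took 22.5% ± 1.24, the R12 class 20.5% ± 0.893 and the RZ class 12.7% ± 0.811. These shares leave out Rgs5, an R4 gene with a mean of 39.8 TPM, and Rgs9, an R7 gene with a mean of 11.1 TPM. Over protein-coding transcripts alone the R7 share was 14.7% and the R12 share 23.0%, so the order of these classes turned round. The R4 class was lower in replicate 1, with 171 TPM against 187 TPM in replicate 2. The median of all genes in deposited TPM is shifted by 0.12 on the log2 scale towards replicate 1, so differences between the libraries are described further on with normalised counts.

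Rgs4, an R4 protein that acts on Gi, Go and Gq α subunits, led the family with 107 TPM in replicate 1 and 124 TPM in replicate 2. It lies at chr1:169741477-169747642 on the minus strand (GRCm38). It exceeded Rgs2, which prefers Gq, by 2.85 ± 0.32, Rgs8 by 2.69 ± 0.05 and Rgs16 by 4.48 ± 0.02 on the log2 scale (n = 2 libraries). Rgs2 had 17.4 TPM in replicate 1 and 14.7 TPM in replicate 2, and Rgs8 had 17.0 TPM in replicate 1 and 18.8 TPM in replicate 2. Rgs3 had 24.0 TPM in replicate 1 and 23.8 TPM in replicate 2, and Rgs16 had 4.85 TPM in replicate 1 and 5.53 TPM in replicate 2. The other R4 genes were under 1 TPM: Rgs1 and Rgs13, known from B cells, Rgs18, known from platelets, and Rgs21, with means between 0 and 0.13 TPM.

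In the R7 class, Rgs11 had 46.6 TPM in replicate 1 and 42.9 TPM in replicate 2, above Rgs7 with 37.0 TPM in replicate 1 and 33.1 TPM in replicate 2. That order changed with the transcripts counted, as described below. Rgs6 had 11.3 TPM in replicate 1 and 11.5 TPM in replicate 2. Without Rgs9, the class summed to 94.95 TPM in replicate 1 and 87.53 TPM in replicate 2. Over protein-coding transcripts alone it summed to 51.4 TPM in replicate 1 and 49.4 TPM in replicate 2. Gnb5, which has 1 annotated transcript, had 79.7 and 71.8 TPM, below the first pair of sums and above the second.

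In the R12 class, Rgs10 had 33.2 TPM in replicate 1 and 33.3 TPM in replicate 2. Its deposited TPM intervals were wide, from 31.7 to 52.8 in replicate 1 and from 31.9 to 58.5 in replicate 2. Its posterior means were higher, at 39.7 and 41.7 TPM. Rgs12, a large scaffold protein, had 30.0 TPM in replicate 1 and 31.1 TPM in replicate 2. Rgs14, known for its high level in a part of the hippocampus, had 22.7 TPM in replicate 1 and 16.1 TPM in replicate 2. In the RZ class Rgs19 had 27.74 and 20.96 TPM in replicates 1 and 2, Rgs20 had 15.3 and 18.1 TPM and Rgs17 had 11.1 and 10.3 TPM. Rgs22, in none of these classes, averaged 0.18 ± 0.0283 TPM. Of the 13 neighbouring pairs in the RGS order, 4 were apart beyond the spread: Rgs4 and Rgs11, Rgs11 and Rgs7, Rgs2 and Rgs6, and Rgs17 and Rgs16. From Rgs7 down to Rgs2 no neighbours were apart.

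**Figure D2:**
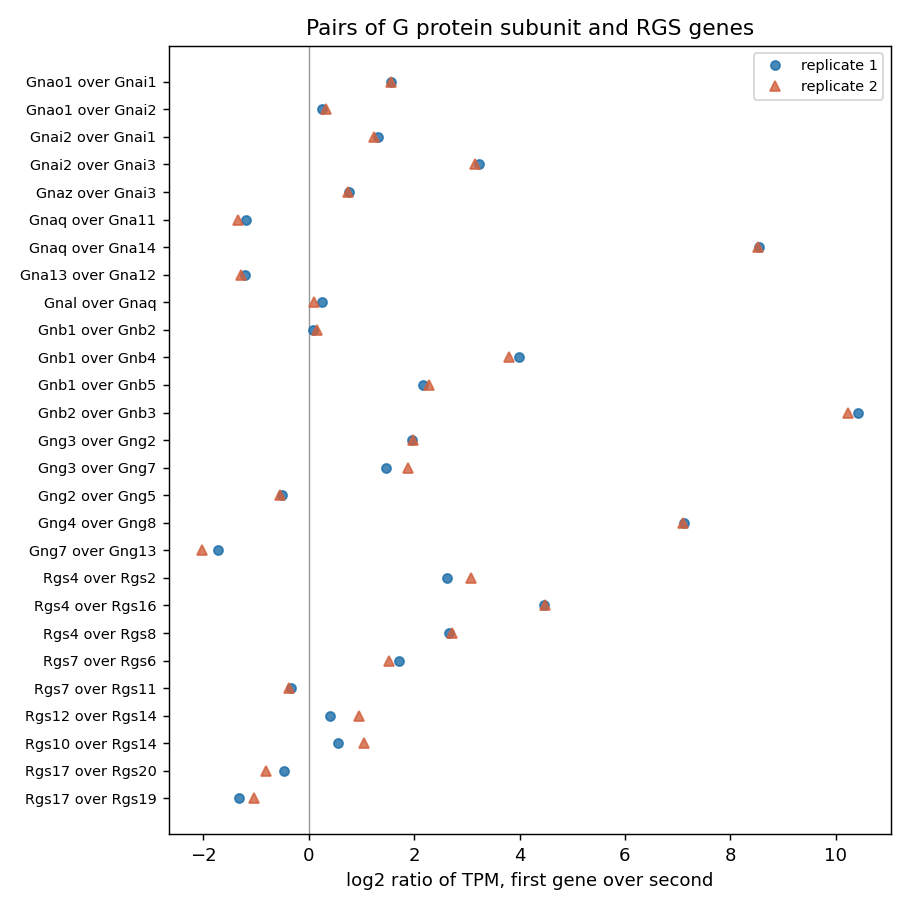
Log2 ratios of TPM for 27 pairs of genes, the first-named gene over the second, with a circle for replicate 1 and a triangle for replicate 2. All 27 pairs lie on the same side of 0 in both libraries, from -1.88 for Gng7 over Gng13 to 10.33 for Gnb2 over Gnb3 on average.

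All 27 gene pairs compared were apart beyond the spread by TPM. They were chosen with earlier results of these data known, so this count does not show how well levels are resolved in general. Of the 36 neighbouring pairs in the order of levels, the closest by construction, 20 were apart. When expected counts were compared without dividing by length, 6 of the 27 changed sign: Gng2 and Gng5, Gng7 and Gng13, Rgs7 and Rgs11, Rgs10 and Rgs14, Rgs17 and Rgs20, and Rgs17 and Rgs19. In protein-coding transcripts alone 2 changed sign, Gnb1 and Gnb2 and Rgs7 and Rgs11, so these orders depend on the measure.

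Several of the low genes lie beside more abundant relatives. The annotation (GENCODE M21, GRCm38) places 11 pairs of members within 300 kb of each other, and 10 of the 19 RGS members on chromosome 1, which holds 5.50% of protein-coding genes. Gna15 lies 4.50 kb from Gna11, whose mean level was 44.8-fold higher. Gnat2 lies 5.85 kb from Gnai3, which was 67.4-fold higher, and Gna14 lies 48.3 kb from Gnaq, which was 369-fold higher. Gnat1 lies 39.1 kb from Gnai2 with 1 protein-coding gene between them, and Rgs13 lies 134 kb from Rgs2, which was 124-fold higher. The folds rest on low counts of the second gene: 22 and 18 for Gnat2, 24 and 20 for Gna14, and 22 and 6 for Rgs13 in replicates 1 and 2. Gnat3 lies 245 kb from Gnai1 and Gngt1 6.47 kb from Gng11, both at 0 beside a detected gene. Rgs16 lies 40.0 kb from Rgs8 and differed less, with a mean 3.45-fold lower.

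**Figure D3:**
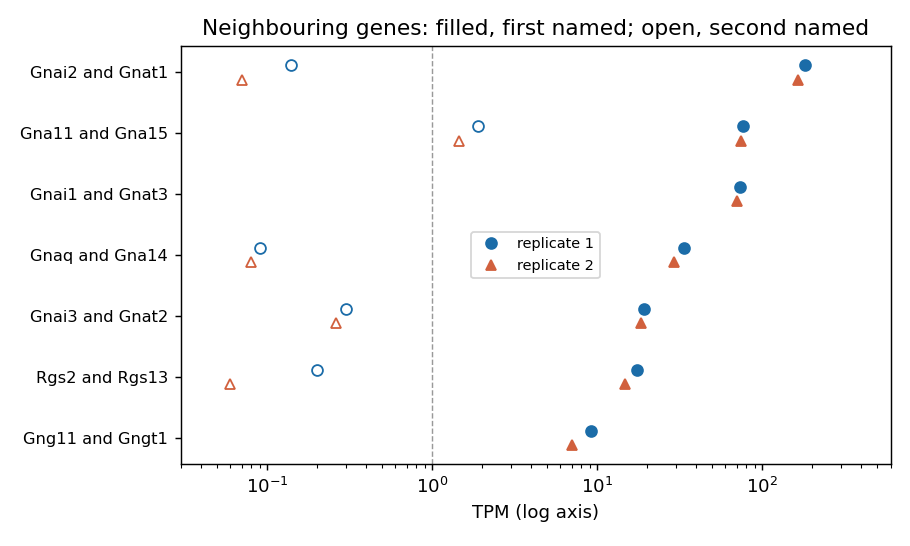
Levels in TPM (log axis) of 7 pairs of neighbouring genes, the first-named gene filled and the second open, with a circle for replicate 1, a triangle for replicate 2 and a dashed line at 1 TPM. Each first-named gene lies above 7 TPM in both libraries, and each second-named gene lies under 2 TPM or, for Gnat3 and Gngt1, is listed at 0 and not drawn.

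The promoters of 3 such pairs are shown because one gene of each is abundant here and its neighbour is not. Each line gives the 250 bases before the RefSeq start (GRCm38.p6), 5′ to 3′ on the gene's strand, with CG dinucleotides in capitals. The windows are chr3:108146153-108146402 (minus) for Gnai3 and chr3:108092816-108093065 (plus) for Gnat2, chr19:16132434-16132683 (plus) for Gnaq and chr19:16435417-16435666 (plus) for Gna14, and chr1:144004150-144004399 (minus) for Rgs2 and chr1:144177373-144177622 (minus) for Rgs13.
Gnai3: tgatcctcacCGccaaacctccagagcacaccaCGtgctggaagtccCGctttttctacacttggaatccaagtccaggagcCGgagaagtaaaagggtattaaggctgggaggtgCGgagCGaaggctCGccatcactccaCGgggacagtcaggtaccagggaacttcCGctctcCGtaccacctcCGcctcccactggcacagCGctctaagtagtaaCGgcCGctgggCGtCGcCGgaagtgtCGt
Gnat2: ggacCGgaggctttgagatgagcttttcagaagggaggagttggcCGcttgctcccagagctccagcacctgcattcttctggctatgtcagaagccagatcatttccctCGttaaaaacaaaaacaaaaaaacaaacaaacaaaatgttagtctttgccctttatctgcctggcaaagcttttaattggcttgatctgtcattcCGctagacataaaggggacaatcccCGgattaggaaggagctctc
Gnaq: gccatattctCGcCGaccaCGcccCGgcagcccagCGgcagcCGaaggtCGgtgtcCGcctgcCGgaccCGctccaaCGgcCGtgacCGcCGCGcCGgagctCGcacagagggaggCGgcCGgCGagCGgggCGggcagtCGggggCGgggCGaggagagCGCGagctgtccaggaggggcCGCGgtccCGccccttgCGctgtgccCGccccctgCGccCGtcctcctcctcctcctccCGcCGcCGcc
Gna14: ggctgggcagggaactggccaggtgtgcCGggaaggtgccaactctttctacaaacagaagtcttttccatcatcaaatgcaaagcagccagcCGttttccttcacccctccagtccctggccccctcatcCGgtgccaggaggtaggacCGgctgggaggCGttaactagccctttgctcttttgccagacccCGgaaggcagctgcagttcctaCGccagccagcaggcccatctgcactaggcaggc
Rgs2: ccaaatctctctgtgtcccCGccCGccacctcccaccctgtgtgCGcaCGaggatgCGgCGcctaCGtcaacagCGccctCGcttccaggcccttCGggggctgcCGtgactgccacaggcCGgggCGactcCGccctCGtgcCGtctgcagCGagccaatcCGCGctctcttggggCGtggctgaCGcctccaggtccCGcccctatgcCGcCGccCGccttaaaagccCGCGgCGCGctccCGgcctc
Rgs13: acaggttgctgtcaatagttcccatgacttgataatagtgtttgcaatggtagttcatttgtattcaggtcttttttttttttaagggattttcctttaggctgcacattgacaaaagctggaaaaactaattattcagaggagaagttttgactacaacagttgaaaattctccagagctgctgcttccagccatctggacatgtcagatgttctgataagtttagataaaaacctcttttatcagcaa
Gnai3 held 18 CG dinucleotides and Gnat2 held 5, Gnaq held 37 and Gna14 held 7, and Rgs2 held 30 and Rgs13 held 0. A window was found for 37 of the 51 genes, 47 windows in all. The median was 18 (range 2 to 44) over 41 windows of genes at a mean of 1 TPM or more. It was 3 (range 0 to 7) over 6 windows of genes under that level, and 6 over all 32841 RefSeq windows. Abundant genes with few CG dinucleotides included Gng3, with 2 at a mean of 145 TPM, and Gnb5, with 3 at 75.7 TPM. Whether CG content goes with level was not tested. The GC box letters GGGCGG, read on both strands, were in 22 of the 47 windows, or 46.8%, against 32.7% of all windows. The letters TATAAA were in 5, or 10.6%, against 12.4%, and the cyclic AMP response letters TGACGTCA in 0, against 1.55%. These matches are descriptions of the letters in the window.

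Transcripts of the genes were compared by the percent of a gene's TPM that each takes, an estimate by the authors. Of the 35 genes at a mean of 10 TPM or more, 30 had at least 2 transcripts. The same transcript led in both libraries for 29 of the 30, against 92.8% of protein-coding genes at that level. The exception was Gnb2, in which Gnb2-202 took 5.8% in replicate 1 and 40.89% in replicate 2. The leading transcript took at least 50% on average for 21 of the 30, against 71.7%.

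Gnao1 makes alternative forms known as GoA and GoB, which differ at the carboxyl end, the part of the α subunit that receptors touch. Gnao1-201 and Gnao1-203, which share their coding sequence and are the GoA form, took 71.3% of Gnao1 TPM in replicate 1 and 73.7% in replicate 2 (mean 72.5% ± 1.70, SD, n = 2). Gnao1-207, the GoB form, took 13.1% in replicate 1 and 11.1% in replicate 2 (mean 12.1% ± 1.41), a ratio of 6.03 ± 0.844 between the forms. Both coding sequences are 1062 bases long, the first 737 bases are identical, and 91.7% are identical in place. The last 60 coding bases, from exons at chr8:93966868-93967052 for Gnao1-201 and chr8:93956065-93956249 for Gnao1-207 (GENCODE M21, GRCm38, plus strand), differ at the 15 places in capitals.
Gnao1-201: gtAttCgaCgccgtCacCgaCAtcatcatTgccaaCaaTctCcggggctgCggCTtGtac
Gnao1-207: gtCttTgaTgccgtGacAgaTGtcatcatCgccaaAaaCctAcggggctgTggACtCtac
Most of these 15 differences leave the encoded residue unchanged. Those that change it turn isoleucine (Atc) into valine (Gtc) and asparagine (aaC) into lysine (aaA), from Gnao1-201 to Gnao1-207. The remaining Gnao1 TPM included retained-intron transcripts, at 14.8% in replicate 1 and 14.3% in replicate 2.

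A retained-intron transcript keeps an intron and is annotated as not coding. By TPM such a transcript led in 4 of the 30 genes, Gnb1, Gnb4, Rgs3 and Rgs11, against 4.64% of protein-coding genes at that level. TPM divides by length, and these leaders were shorter than the leading coding transcripts. In replicate 1, Gnb1-206 had 5999 counts against 21214 for the coding Gnb1-201, and Gnb4-207 had 408 against 2774 for Gnb4-205. Rgs3-207 had 810 against 1302 for Rgs3-204. In Rgs11 a retained-intron transcript, Rgs11-208, also led by counts, with 1464 against 624 for the coding Rgs11-201. Together, retained-intron transcripts took 90.7% of Rgs11 TPM in replicate 1 and 86.7% in replicate 2, and 70.9% and 74.1% of Gnb4 TPM. These were the 2 of 35 genes at or above 50%, against 3.66% of protein-coding genes. Over protein-coding transcripts alone, Rgs11 had 4.2 TPM in replicate 1 and 5.71 TPM in replicate 2, and moved to rank 14 in its family, against rank 2 over all transcripts. Retained-intron transcripts took 40.1% of Gnb1 TPM in replicate 1 and 39.8% in replicate 2, and 32.9% and 32.6% of Gnb2 TPM. In Rgs3 they took 40.0% and 42.2%, and in Gnai2 19.4% and 24.8%. Gnal-202 took 65.8% of Gnal TPM on average, and Gng4-201 and Rgs4-201 took 98.7% and 99.0% of theirs. In 18 of the 35 genes no TPM was assigned to such transcripts, against 54% of protein-coding genes at that level.

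**Figure D4:**
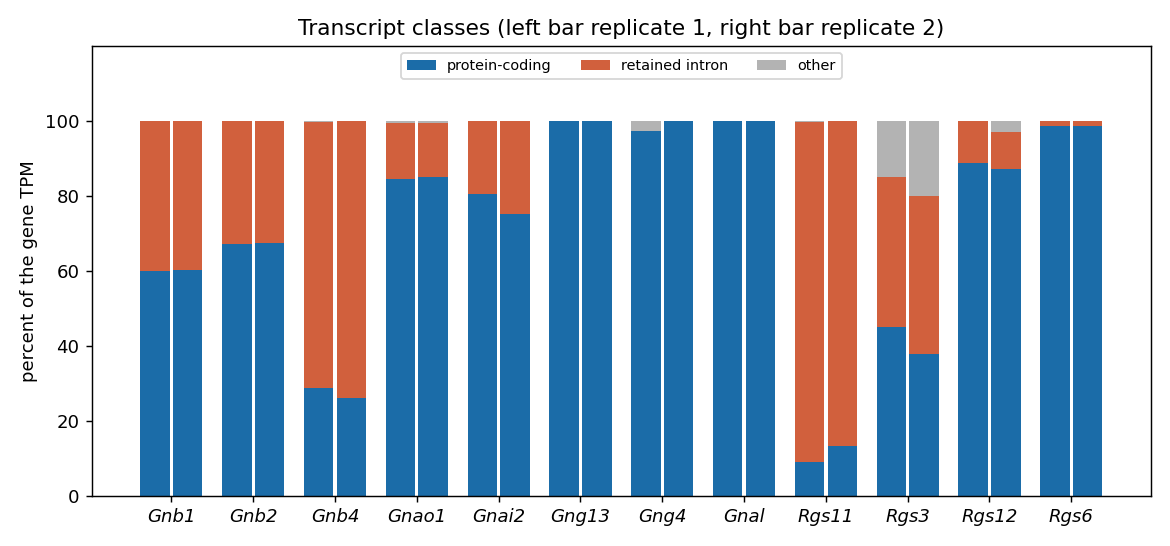
Percent of each gene's TPM in protein-coding, retained-intron and other transcripts for 12 genes, the left bar replicate 1 and the right bar replicate 2. Rgs11 and Gnb4, added after their values were seen, have the highest retained-intron shares, and Gng13, Gng4 and Gnal have none.

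With no contrast in the design, the libraries were compared with each other as the ratio of replicate 1 over replicate 2 in normalised, depth-scaled counts. None of the 40 genes at a mean of 1 TPM or more reached 0.5 on the log2 scale, against 3.19% of 13247 protein-coding genes at that level, of which 1.46% were higher and 1.74% lower in replicate 1 as shares of all 13247. Their median was -0.05, against -0.00053 over all genes. A ratio above 0 was seen in 16 genes, or 40% of the 40, against 49.9% of all genes, and a ratio below 0 in 24. At 0.3, 5 of the 40 passed, against 10.3%.

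The highest ratios were those of Gna15 at 0.38, Rgs14 at 0.36, Gngt2 at 0.30, Gng7 at 0.28 and Gng11 at 0.24. The lowest were Rgs20 at -0.37, Rgs4 at -0.35, Rgs16 at -0.32, Rgs8 at -0.30 and Gng4 at -0.27. Gna15, Gngt2 and Gng11 have low counts, 221, 196 and 508 in replicate 1 and 139, 131 and 353 in replicate 2. The 95% interval of the ratio, which covers counting error only, ran from 0.08 to 0.71 for Gna15 and from -0.37 to -0.32 for Rgs4. Of the 5 R4 members, 4 were below 0, with a median of -0.30. Rgs5, an R4 gene outside the set by the rule, had 46.5 TPM in replicate 1 and 33.1 TPM in replicate 2. Its ratio of 0.35 went the other way. Rgs5 is also 1 of the mural cell markers counted below.

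**Figure D5:**
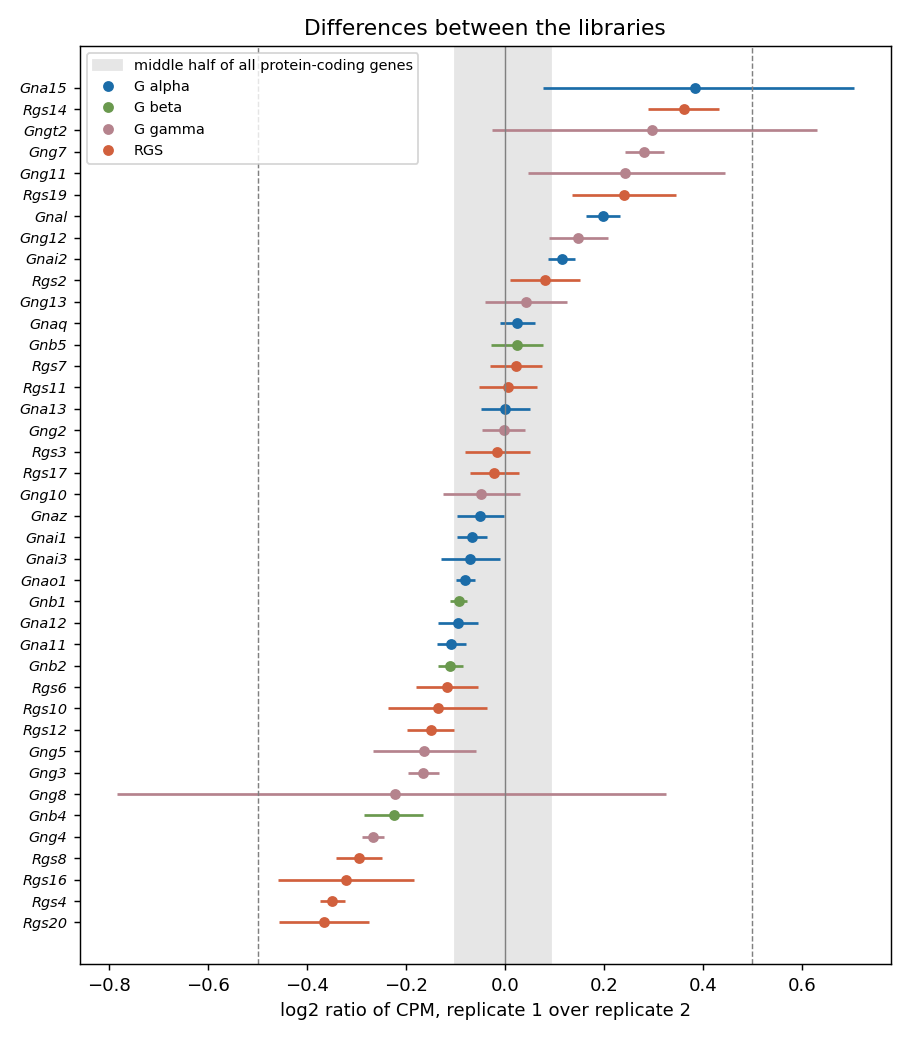
Log2 ratio of normalised counts (CPM), replicate 1 over replicate 2, for the 40 genes at a mean of 1 TPM or more, coloured by family, with 95% exact binomial intervals of counting error. The grey band spans the quartiles of all protein-coding genes, the dashed lines mark -0.5 and 0.5, and every point lies between them.

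Cell and state markers also moved between the libraries, though not every list moved 1 way. Astrocyte markers were higher in replicate 1 for 2 of 6 genes and lower for 4, with a median ratio of -0.05. Endothelial markers were higher for 3 of 5 and lower for 2, with a median of 0.12. Microglial markers were higher in replicate 1 for 10 of 10 genes, with sums of 402 TPM in replicate 1 and 278 TPM in replicate 2, and mural cell markers for 6 of 6, with sums of 195 and 151 TPM. Oligodendrocyte markers were lower in replicate 1 for 5 of 5 genes, with sums of 1802 and 2221 TPM. Blood markers were lower in replicate 1 for all 7 genes at a mean of 1 TPM or more, with sums over the list of 519 and 673 TPM, while Gna15 had a ratio of 0.38. Genes of the frontal cortex neuron list were lower in replicate 1 for 6 of 8, with a median ratio of -0.16. Olfactory bulb markers were lower for 5 of 5, with a median of -0.12. Striatal markers were lower in replicate 1 for 9 of 10 genes, with a median ratio of -0.33, while Gnal at 0.20 and Gng7 at 0.28 were higher. Rgs9, an RGS gene outside the set by the rule, is on the striatal list and had a ratio of -0.27. Immediate early genes were lower in replicate 1 for 13 of 13 genes, with a median of -1.08, while Rgs2, known to respond to neuronal activity, had a ratio of 0.08. Each member set beside a list here had a ratio above 0, and none of the 24 members below 0 was set beside one. No marker of these lists was at 0 in both libraries, and the part of these lists in the ratios above was not tested.

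Other genes of the pathway, a list of 39 effectors, kinases, exchange factors and partners, were all found. At 1 TPM or more in both libraries were 34, against 60.7% of protein-coding genes. None of those 34 passed 0.5 in either direction, against 3.19% of protein-coding genes at a mean of 1 TPM or more. At that share few or none of 34 would pass. Their median ratio was 0.01, with 19 above 0 and 15 below, against 49.9% of all genes above 0. After Gnas, the most abundant were Gpsm1, a Gi-binding regulator, with 129 TPM in replicate 1 and 135 TPM in replicate 2, and Grk2, a receptor kinase, with 103 TPM in replicate 1 and 89.9 TPM in replicate 2.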

How the data were processed

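The authors' deposited gene and transcript tables give expected counts, TPM and FPKM, the percent of a gene's TPM per transcript, posterior means and bounds of a TPM interval whose level is not stated. The deposited description names mm10 and annotation M4. Which aligner and quantifier were run is not given in the sources used here. Gene IDs were matched without version to GENCODE M21, the same build. Expected counts were rounded, spike-ins left out and scaled with edgeR 4.0.16 TMM factors (1.02 in replicate 1 and 0.982 in replicate 2), with a prior count of 2, in R 4.3.3. Scaling was tested on simulated data. Alternatives were the spike-in total, library size, DESeq2 1.42.0 factors, deposited TPM, other filters, posterior means, counts and each replicate alone. Levels between genes are in TPM, errors are SD over 2 libraries, and ratio intervals are exact binomial at 95%. The deposited FPKM values entered 1 alternative. Members and lists were chosen with earlier results of these data known. Values per library are given for genes at a mean of 10 TPM or more and for compared pairs, and the 5 highest and 5 lowest replicate ratios are named. Protein sequences planned for display were not used here.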

Additional observations from a re-analysis of the deposited data

How the results depend on the processing

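No paired analysis was possible because there is 1 group. With 2 libraries no p-value can be given, and the values measure only the spread between them. Of 71 alternative values other than those that leave out a library, 39 stayed within the spread or within 1.5 times the count, and 32 moved. Leaving out 1 of 2 libraries cannot move a mean by more than its SD, so for sums and shares it shows nothing about stability. By counts, Gnao1 took 27.2% of Gα, Gnb1 60.6% of Gβ, Gng13 2.94% of Gγ and Rgs4 32.1% of RGS. By counts the inhibitory class took 59.6%, the phospholipase C class 20.3%, Gna12 and Gna13 10.7% and Gnal 9.31% of Gα, and R4 took 51.9%, R7 19.2% and R12 15.8% of RGS. Protein-coding transcripts alone, chosen after seeing the data, gave sums of 625 (Gα), 515 (Gβ) and 342 TPM (RGS), shares of 28.7% for Gnao1, 41.3% for Gnb1 and 33.6% for Rgs4, class shares of 68.95%, 16.5%, 8.86% and 5.69% in Gα in the same order and 47.7%, 14.7%, 23.0% and 14.5% for R4, R7, R12 and RZ, and 26 of 27 pairs beyond the spread. The Gγ sum without Gng13, also chosen after seeing the data, was 492 TPM, and the posterior mean RGS sum was 414 TPM, with R12 at 21.9%. The median replicate ratio was 0.0029 by library size and 0.0704 by deposited TPM, where the median of all genes moved to 0.05 and 0.12. At a fold of 0.3, or with no filter on low values, 5 members passed, against 10.3% and 17.1% of genes. With 1 replicate left out, 39 to 40 members were detected and 20 to 21 leading transcripts reached 50%.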
